A study of Mus musculus with 16 samples.

Results

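The genes described here encode the neurofilament triplet (*Nefl*, *Nefm* and *Nefh*) and 2 further neuronal intermediate filament proteins, α-internexin (*Ina*) and peripherin (*Prph*). They were taken by gene symbol, and all 5 of 5 were present among the 18167 genes of the table. RNA-Seq was performed on spinal cords of 16 mice carrying a human profilin1 transgene, and each library came from 1 mouse. MO (mutant old, n = 5) and MY (mutant young, n = 3) mice were of the line Tg(Prnp-PFN1*G118V)838Kiaei on C57BL/6N, which expresses human profilin1 with the G118V change. MO mice were at end stage and 198, 190, 245, 224 and 175 days old (MO1 to MO5), whereas MY mice were pre-symptomatic and 50 days old. WO (wild-type old, n = 5) and WY (wild-type young, n = 3) mice were of the line Tg(Prnp-PFN1)850Kiaei on C57BL/6N, which expresses the unchanged human protein. WO1 to WO3 were 190 days old, WO4 and WO5 were 294 days old, and WY mice were 50 days old. No mouse received a treatment, and the growth protocol gives the mice as male. In both lines the mouse prion protein promoter drives the transgene, and each genotype is 1 transgenic line, so genotype and line cannot be told apart. All mice carry a human transgene, and non-transgenic mice were not analysed here. MY and WY libraries were all of batch 1, and MO and WO each had 3 libraries of batch 1 and 2 of batch 2 (replicates 4 and 5).

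Neurofilaments are the main intermediate filaments of the axons of large neurons, motor neurons among them, and they set axon caliber. The light chain forms the filament core with the medium and heavy chains, whose long tails project sideways, and α-internexin joins them as a further subunit in the central nervous system. Peripherin is found mainly in neurons that send axons to the periphery and can assemble with the same subunits. Neurofilament protein accumulates in motor neurons in amyotrophic lateral sclerosis, and neurofilament light chain in blood and cerebrospinal fluid is used as a measure of axonal damage.

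Expression is given as log2(1 + FPKM) after the authors' batch correction, where FPKM counts fragments per kilobase of transcript, scaled to all mapped fragments of a library. A log2(FC) is the second group of a comparison minus the first on this scale. Genes were tested with *limma* over all 18167 genes, and a gene passed at a Benjamini-Hochberg FDR of at most 0.05. It was called differentially expressed when the absolute fold change was also at least 1.5. The number of fragments behind a gene is unknown from these values, so precision rests on the spread between mice.

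The libraries MO5 and WY1 stood apart in some of their values. MO5 went against the male label, since *Xist*, which is expressed from the inactive X chromosome, was at 3.21 there and at most at 0.37 in every other mouse. The Y-linked *Ddx3y* was at 1.95 in MO5 and at least at 4.06 in the others. WY1 had a root mean square difference over all genes of 0.263 from the mean of the other mice of its group, against 0.231 for WY2 and 0.194 for WY3. Groups differ in size, and with this distance scaled for it WY1 was at 0.2149 and MO1 at 0.2197, the highest of all mice, so WY1 was not the farthest. WY1 was the lowest of the WY mice for 4 of the 5 genes, which is described with each gene. Mouse *Pfn1* averaged 7.02 ± 0.18 in MO (SD, n = 5), 6.66 ± 0.03 in MY (n = 3), 6.62 ± 0.12 in WO (n = 5) and 6.77 ± 0.19 in WY (n = 3). It rose in MO (log2(FC) 0.35, FDR 0.0278 for MY vs. MO by *limma*, and 0.40, FDR 0.00708 for WO vs. MO). How much of this row comes from the human transgene was not tested.

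The 5 genes differed widely in level. Averaged over mice, *Nefl* ranked 22 among the 18167 genes, *Nefm* 105, *Nefh* 253, *Ina* 925 and *Prph* 1572. The mean in WO corresponded to an FPKM of 1254 for *Nefl*, 570 for *Nefm*, 307 for *Nefh*, 100.3 for *Ina* and 55.3 for *Prph*. FPKM is a value per transcript length, so this order holds between genes.

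*Nefl* encodes the light chain. Its log2(1 + FPKM) was 9.87, 10.30 and 10.27 in WY1 to WY3 and 10.26, 10.28 and 10.31 in MY1 to MY3. It was 10.42, 10.09, 10.26, 10.32 and 10.38 in WO1 to WO5 and 9.44, 9.49, 9.37, 9.91 and 9.54 in MO1 to MO5. All MO mice lay below all MY and all WO mice, but WY1 was just below MO4, the highest of the MO mice. Apart from WY1, the WY, MY and WO mice shared 1 range.

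*Nefm* encodes the medium chain. Its log2(1 + FPKM) was 9.13, 9.25 and 9.18 in WY1 to WY3, 9.24, 9.17 and 9.29 in MY1 to MY3, and 9.37, 8.99, 9.02, 9.15 and 9.26 in WO1 to WO5. In MO1 to MO5 it was 8.51, 8.47, 8.33, 8.62 and 8.32. Every MO mouse was below every one of the other mice, whereas the ranges of WY, MY and WO overlapped.

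*Nefh* encodes the heavy chain, whose tail is the most heavily phosphorylated. Its log2(1 + FPKM) was 8.11, 8.29 and 8.25 in WY1 to WY3, 8.33, 8.36 and 8.31 in MY1 to MY3, and 8.44, 8.16, 8.20, 8.21 and 8.32 in WO1 to WO5. In MO1 to MO5 it was 7.45, 7.47, 7.35, 7.82 and 7.54. MO again lay below all other mice, with MO4 nearest to them. The MY mice were above the WY mice, by less than the range of the WO mice.

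*Ina* encodes α-internexin. Its log2(1 + FPKM) was 5.98, 6.64 and 6.58 in WY1 to WY3 and 6.62, 6.57 and 6.65 in MY1 to MY3. It was 6.67, 6.66, 6.75, 6.55 and 6.68 in WO1 to WO5 and 6.13, 6.05, 6.17, 6.21 and 6.20 in MO1 to MO5. The MO mice were close together and below all MY and WO mice. WY1 was the exception among young mice, with the lowest *Ina* of all 16.

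*Prph* encodes peripherin. Its log2(1 + FPKM) was 5.96, 5.80 and 5.94 in WY1 to WY3, 5.83, 5.96 and 5.78 in MY1 to MY3, and 6.09, 5.66, 5.69, 5.78 and 5.85 in WO1 to WO5. In MO1 to MO5 it was 5.69, 5.78, 5.51, 5.97 and 5.65. The ranges of all 4 groups overlapped, and WY1 was the highest of the WY mice here. Within MO, MO4 had the highest value of each of the 5 genes, and MO3, the oldest at 245 days, the lowest of *Nefl*, *Nefh* and *Prph*.

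**Figure D1:**
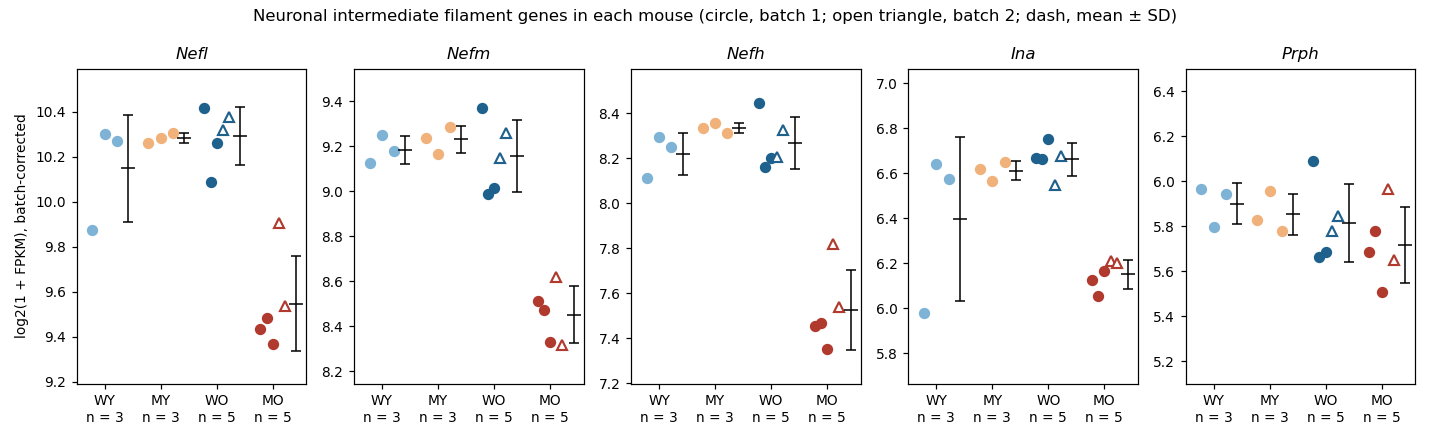
Log2(1 + FPKM) of each gene in each mouse by group, on axes of equal span that do not start at 0. Filled circles are mice of batch 1, open triangles mice of batch 2, and dashes with bars the group mean ± SD. MO lies below MY and WO for *Nefl*, *Nefm*, *Nefh* and *Ina*, overlaps the other groups for *Prph*, and WY1 stands low for *Nefl* (9.87) and *Ina* (5.98).

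MY vs. MO compared pre-symptomatic with end-stage mutant mice. The 3 neurofilament chains and *Ina* fell, that is 4 of 5 genes passed the FDR, all downwards, against 12.5% of all genes lower in MO at this threshold. The number of genes behind such shares depends on single MY mice. In either direction 4646 genes passed by *limma*, and 2586 to 3063 with 1 of the MY mice left out. The log2(FC) was -0.74 ± 0.11 for *Nefl* (SE, FDR 0.00219), -0.78 ± 0.07 for *Nefm* (FDR 0.000357), -0.81 ± 0.09 for *Nefh* (FDR 0.000744) and -0.46 ± 0.05 for *Ina* (FDR 0.000474), with 5 MO and 3 MY mice. MO thus held 60.0%, 58.3%, 57.1% and 72.7% of the MY level of these genes. *Nefl*, *Nefm* and *Nefh* were differentially expressed by the 1.5-fold threshold, which 0.787% of all genes passed downwards, and *Ina* was not. MO and MY did not overlap for the same 4 genes, as for 15.9% of all genes with every MO mouse below every MY mouse. For *Prph* the log2(FC) was -0.14 ± 0.10, with a 95% interval from -0.35 to 0.08 and an FDR of 0.353. The interval leaves out a decrease as large as that estimated for the other 4 genes. The median log2(FC) was -0.74 over the 5 genes and 0.00 over all genes. Within batch 1, with 3 mice per group, the log2(FC) was -0.85 for *Nefl*, -0.79 for *Nefm*, -0.91 for *Nefh*, -0.50 for *Ina* and -0.20 for *Prph*, and batch 2 held no MY mouse.

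WO vs. MO compared the genotypes at the older age. It shares the MO mice with MY vs. MO, so the agreement of the 2 comparisons is in part given by those mice. *Nefl*, *Nefm*, *Nefh* and *Ina* fell here as well, 4 of 5 genes against 12.9% of all genes lower in MO. The log2(FC) was -0.75 ± 0.10 for *Nefl* (SE, FDR 0.000352), -0.70 ± 0.08 for *Nefm* (FDR 0.000178), -0.74 ± 0.09 for *Nefh* (FDR 0.000149) and -0.51 ± 0.05 for *Ina* (FDR 3.56e-05), with 5 mice per group. MO held 59.6%, 61.3%, 59.8% and 70.2% of the WO level. The 3 chains were again differentially expressed by the fold threshold, passed downwards by 0.517% of all genes, and *Ina* was not. MO and WO did not overlap for these 4 genes, as for 8.65% of all genes with every MO mouse below every WO mouse. For *Prph* the log2(FC) was -0.10 ± 0.10 (95% interval -0.31 to 0.12, FDR 0.529). The median log2(FC) was -0.70 over the 5 genes and 0.00 over all genes. The 2 batches gave the same direction for each gene. In batch 1 the log2(FC) was -0.83 for *Nefl*, -0.69 for *Nefm*, -0.84 for *Nefh*, -0.58 for *Ina* and -0.16 for *Prph*. In batch 2, with 2 mice per group and no test, it was -0.63, -0.73, -0.59, -0.41 and 0.00 (below 0 before rounding) in the same order. The 2 WO mice of batch 2 were older than every MO mouse. Without MO5 the log2(FC) was -0.74 for *Nefl*, -0.67 for *Nefm*, -0.74 for *Nefh*, -0.52 for *Ina* and -0.08 for *Prph*, and in MY vs. MO it was -0.74, -0.75, -0.81, -0.47 and -0.12.

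Spinal cord RNA mixes all cell types, so fewer neurons expressing a gene and less of its RNA per neuron cannot be told apart in these values.

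WY vs. WO compared young with old mice expressing wild-type profilin1. No gene of the 5 passed the FDR, which 1.12% of all genes did in either direction (204 genes by *limma*, and 2447 at an unadjusted p under 0.05). This share rests on single mice, since leaving out 1 mouse gave 9 to 182 genes. The log2(FC) was 0.14 ± 0.11 for *Nefl*, -0.03 ± 0.09 for *Nefm*, 0.05 ± 0.07 for *Nefh*, 0.26 ± 0.14 for *Ina* and -0.09 ± 0.10 for *Prph*. The widest 95% interval was that of *Ina*, from -0.05 to 0.58. WY1 set much of these values, for without it *Nefl* was at 0.01, *Nefh* at -0.01 and *Ina* at 0.05. Doubling or halving in either direction lay outside the intervals of all 5 genes.

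WY vs. MY compared the genotypes at 50 days of age. None of the 5 genes passed the FDR, which 1 gene did among all (0.00550%, with 1301 genes at an unadjusted p under 0.05). The log2(FC) was 0.14 ± 0.12 for *Nefl*, 0.05 ± 0.05 for *Nefm*, 0.11 ± 0.06 for *Nefh*, 0.21 ± 0.17 for *Ina* and -0.05 ± 0.07 for *Prph*. Without WY1 it was 0.00 for *Nefl*, 0.02 for *Nefm*, 0.06 for *Nefh*, 0.00 for *Ina* and -0.01 for *Prph*. For the young mice the 95% intervals of the full comparison ran from -0.14 to 0.42 for *Nefl*, from -0.08 to 0.18 for *Nefm*, from -0.02 to 0.25 for *Nefh*, from -0.20 to 0.63 for *Ina*, the widest, and from -0.21 to 0.12 for *Prph*.

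**Figure D2:**
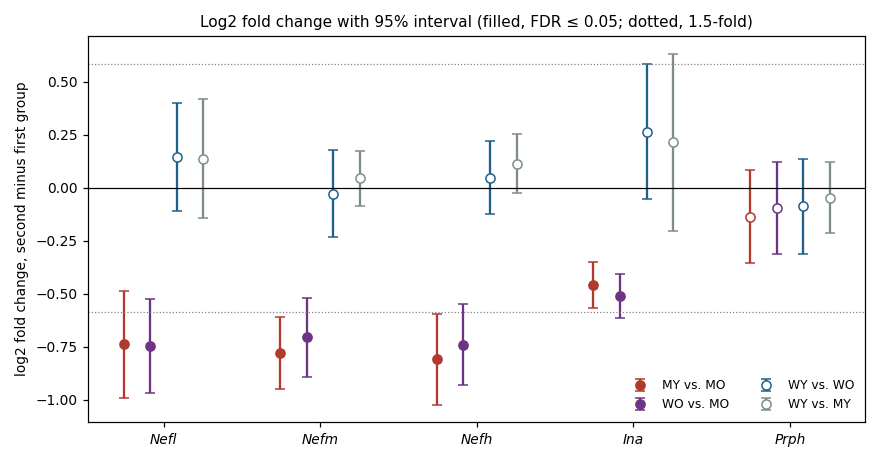
Log2(FC) of each gene in the 4 comparisons, as points with 95% intervals from *limma*. Filled points passed an FDR of 0.05, and dotted lines mark a 1.5-fold change. MY vs. MO and WO vs. MO lie between -0.46 and -0.81 for the first 4 genes, and the intervals of *Prph* include 0 in all 4 comparisons.

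Whether age went with a different change in the 2 genotypes was tested by the contrast of MO minus MY with WO minus WY in all 16 mice. *Nefl* (-0.88 ± 0.17, FDR 0.00226), *Nefm* (-0.75 ± 0.12, FDR 0.000748), *Nefh* (-0.86 ± 0.13, FDR 0.000367) and *Ina* (-0.72 ± 0.15, FDR 0.00522) passed, all below 0. These were 4 of 5 genes, against 7.19% of all genes below 0 at this FDR. *Prph* was at -0.05 ± 0.14 (95% interval -0.36 to 0.26, FDR 0.870). Without WY1 the contrast was -0.74 for *Nefl*, -0.72 for *Nefm*, -0.80 for *Nefh* and -0.51 for *Ina*. With both WY1 and MO5 left out, a choice made after seeing the data, it was -0.74, -0.69, -0.81 and -0.53, and all 4 passed.

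The share of each subunit in the summed FPKM of the 5 genes was compared next. The sum averaged 2167 ± 239 in WY (SD, n = 3), 2322 ± 33.3 in MY (n = 3), 2294 ± 198 in WO (n = 5) and 1411 ± 174 in MO (n = 5). *Nefl* made up 53.3 ± 1.9% of it in MO and 54.8 ± 1.1% in WO, *Nefm* 24.9 ± 1.8% and 24.9 ± 0.9%, and *Nefh* 13.1 ± 0.3% and 13.4 ± 0.4%. *Ina* made up 5.02 ± 0.52% in MO and 4.41 ± 0.47% in WO, and *Prph* 3.68 ± 0.16% and 2.42 ± 0.14%. The 3 chains thus kept close to the same proportions while their sum differed, and *Prph* took a larger share in MO. A gene that falls less than the others takes a larger share of their sum by calculation.

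The level of each gene relative to *Nefl* was tested as a log2 difference within each mouse by exact permutation tests of both directions, with adjustment over 16 tests. *Nefm* minus *Nefl* differed by -0.04 in MY vs. MO (exact p = 0.696) and by 0.04 in WO vs. MO (exact p = 0.603), and *Nefh* minus *Nefl* by -0.07 (exact p = 0.0536) and 0.00 (exact p = 0.929). For *Ina* minus *Nefl* the differences were 0.28 (exact p = 0.107) and 0.23 (exact p = 0.0635). The largest were those of *Prph* minus *Nefl*. This value was -4.43, -4.33 and -4.53 in MY1 to MY3, -4.33, -4.43, -4.57, -4.54 and -4.53 in WO1 to WO5, and -3.75, -3.71, -3.86, -3.94 and -3.89 in MO1 to MO5. Every MO mouse was above every MY and WO mouse. Any gene that falls less than *Nefl* rises against it. The log2(FC) of *Nefl* itself was -0.74 in MY vs. MO and -0.75 in WO vs. MO, and the median over all genes was 0.00 in both. A rise against *Nefl* is thus not particular to *Prph*, and the share of all genes with such a separation was not counted. For *Prph* minus *Nefl* the difference was 0.60 in MY vs. MO (exact p = 0.0179, adjusted 0.143) and 0.65 in WO vs. MO (exact p = 0.00794, adjusted 0.127). Both p-values are the smallest that the numbers of mice allow, and neither passed 0.05 after adjustment. In WY1 to WY3 the value was -3.91, -4.51 and -4.33, so that WY1 lay among the MO mice. No ratio passed in WY vs. WO or WY vs. MY, and in the latter 3 mice against 3 cannot give an exact p under 0.1.

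**Figure D3:**
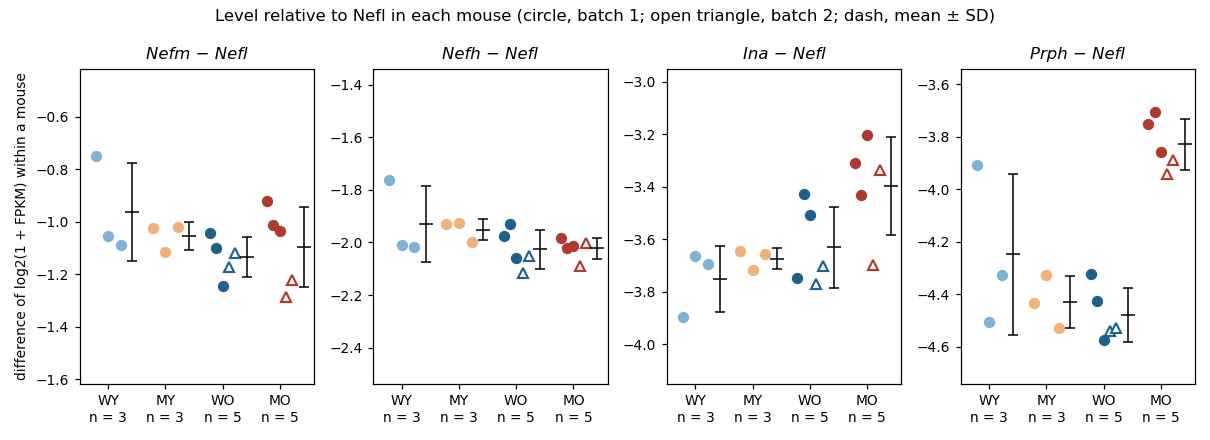
Difference in log2(1 + FPKM) between each gene and *Nefl* within each mouse, by group, on axes of equal span that do not start at 0. Symbols are as in the plot of log2(1 + FPKM), with circles for batch 1, triangles for batch 2 and dashes for the mean ± SD. For *Prph* the MO mice lie between -3.94 and -3.71, above all MY and WO mice, and WY1 lies among them at -3.91.

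The genes most like each member over the 16 mice, by Pearson's r among the 13530 genes with a mean of at least 1, are given as a description. All mice of a group share its level, so r is high for any pair of genes that both differ in MO. For *Nefl* they were *Rimkla* (r = 0.982), *Kcng4* (0.979) and *Nefh* (0.976), and for *Nefm* they were *Nefh* (0.974), *Kbtbd11* (0.959) and *Slco3a1* (0.949). *Nefh* was followed most closely by *Tmem229b* (0.980), *Nefl* (0.976) and *Nefm* (0.974). *Ina* was followed by *Slit2* (0.981), *Ywhag* (0.978) and *Lgr5* (0.977), with no neurofilament chain among them. The list of *Nefh* thus held both other chains, and those of *Nefl* and *Nefm* held *Nefh* only. *Prph* had lower values throughout, with *Hmox2* (0.892), *Dap3* (0.869) and *Ccdc28b* (0.852), none of which passed the FDR in MY vs. MO or WO vs. MO. Between members, r was 0.976 for *Nefl* with *Nefh*, 0.940 for *Nefl* with *Nefm* and 0.870 for *Nefl* with *Ina*, but 0.546 for *Nefl* with *Prph* and 0.157 for *Ina* with *Prph*. After each group mean was subtracted, *Nefh* still had an r of 0.905 with *Nefl*, 0.747 with *Nefm* and 0.765 with *Prph*, so that mice high in one of these genes within a group tended to be high in the others. For *Ina* this r was 0.597 with *Nefl*, 0.376 with *Nefh*, 0.143 with *Nefm* and -0.188 with *Prph*.

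A minority of other cytoplasmic intermediate filament genes rose in the comparisons with MO. Of 12 measured, 3 rose in MY vs. MO and 4 in WO vs. MO, none fell, and 13.1% and 15.0% of all genes were higher at this FDR. They were led by *Vim*, the vimentin gene of glial and mesenchymal cells (log2(FC) 2.49 and 2.59, FDR 0.000203 and 1.46e-05), *Gfap* of astrocytes (1.26 and 1.60, FDR 0.000317 and 1.46e-05) and *Nes*, encoding nestin (0.80 and 0.94, FDR 0.000579 and 0.000111). The median log2(FC) of the list was 0.12 and 0.09. In WY vs. WO 2 of 12 fell, where 1.12% of all genes passed in either direction, *Bfsp2* (-0.59, FDR 0.00860) and *Gfap* (-0.54, FDR 0.0345), and in WY vs. MY none passed.

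Among genes for linkers, motors and turnover of neurofilaments, 5 of 9 fell in MY vs. MO and 5 of 9 in WO vs. MO, against 12.5% and 12.9% of all genes, and none rose. *Kif5a*, a kinesin heavy chain that moves neurofilaments along axons, fell by 0.45 and 0.44 on the log2 scale (FDR 0.00103 and 0.000211). *Dst*, encoding the cytolinker dystonin, fell by 0.38 and 0.33 (FDR 0.00502 and 0.00254). *Dync1h1*, the dynein heavy chain, fell by 0.22 and 0.22 (FDR 0.0489 and 0.0131), and *Trim2*, a ubiquitin ligase that binds the light chain, by 0.22 and 0.26 (FDR 0.00482 and 0.000637). The median log2(FC) was -0.21 and -0.22. Of 5 kinase genes known to act on neurofilament tails, *Gsk3b* (-0.20, FDR 0.0221) and *Cdk5r1* (-0.16, FDR 0.0478) fell in MY vs. MO, 2 of 5 against 12.5% of all genes, and none passed in WO vs. MO, where the most abundant, *Mapk3*, was at 0.04 (FDR 0.588). The median of the kinase list was -0.11 and -0.09.

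Microtubule and other neuronal cytoskeleton genes fell in 8 of 14 cases in MY vs. MO and 9 of 14 in WO vs. MO, against 12.5% and 12.9% of all genes, with a median log2(FC) of -0.23 and -0.21. The largest decreases were those of *Tubb4a*, a β-tubulin (-0.57 and -0.48, FDR 0.0419 and 0.0365), and of the microtubule-associated *Map1a* (-0.52 and -0.44, FDR 0.00190 and 0.000703) and *Map1b* (-0.49 and -0.43, FDR 0.00219 and 0.00206). One gene rose in both, *Gap43*, which is known for growing and regenerating axons (0.32 and 0.41, FDR 0.00197 and 0.000199). In the 3 lists of linkers, kinases and cytoskeleton genes none passed in WY vs. WO or WY vs. MY.

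Motor neuron markers moved with the neurofilament chains. Of 9 measured, 8 fell in MY vs. MO and 8 in WO vs. MO, against 12.5% and 12.9% of all genes, with a median log2(FC) of -0.31 and -0.50. *Chodl*, a marker of fast motor neurons, fell by 1.57 and 1.74 (FDR 0.00312 and 0.000129), *Mmp9*, found in the same neurons, by 0.71 and 0.70 (FDR 0.000566 and 5.05e-05), and *Chat*, which makes acetylcholine, by 0.41 and 0.67 (FDR 0.00530 and 3.13e-05). The FPKM of the 9 markers summed to 168, 185 and 202 in WY1 to WY3, 187, 195 and 187 in MY1 to MY3, 231, 212, 206, 207 and 224 in WO1 to WO5, and 139, 141, 136, 145 and 151 in MO1 to MO5. All MO mice were below all others, and WY1 was the lowest of the rest. The most abundant marker was *Ache*, and none had a group mean under 0.1. *Chat* in WY1 was at 3.08, under every MO mouse. The part of these markers' changes in those of the neurofilament genes was not tested.

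Pan-neuronal markers were lower in MO in part. In MY vs. MO 5 of 10 fell and in WO vs. MO 6 of 10, against 12.5% and 12.9% of all genes, none rose, and the median log2(FC) was -0.22 and -0.25. *Elavl3* fell by 0.40 and 0.31 (FDR 0.00181 and 0.00118), *Snap25* by 0.27 and 0.41 (FDR 0.0134 and 0.000259), *Rbfox3*, which encodes the neuronal nuclear antigen NeuN, by 0.28 and 0.32 (FDR 0.0126 and 0.00176), and *Tubb3* by 0.25 and 0.32 (FDR 0.0396 and 0.0150). Their FPKM summed to 3658, 3602 and 3623 in WY1 to WY3, 3736, 3668 and 3773 in MY1 to MY3, 4292, 3836, 3892, 3772 and 4041 in WO1 to WO5, and 3217, 3453, 3194, 3516 and 3234 in MO1 to MO5, with *Snap25* the most abundant and none near 0. MO mice were again the lowest, and WY1 did not stand out here. How far the lower neuronal total goes with the neurofilament decrease was not tested.

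Microglia markers and a majority of astrocyte markers rose in MO. All 7 of 7 microglia markers rose in both comparisons with MO, against 13.1% and 15.0% of all genes (median log2(FC) 1.497 and 1.466), led by *Cd68*, a lysosomal protein of phagocytes (3.24 and 3.22, FDR 0.000317 and 2.34e-05), and *Aif1*, which encodes IBA1 (1.88 and 1.75, FDR 0.00161 and 0.000305). Their FPKM summed to 129 to 132 in WY, 127.2 to 135.7 in MY, 107 to 149 in WO, and 353, 446, 534, 336 and 344 in MO1 to MO5. Of the astrocyte markers 4 of 7 rose in MY vs. MO and 5 of 7 in WO vs. MO, against the same shares of all genes (median 0.44 and 0.69), with sums of 1535 to 1666 in WY, 1422 to 1481 in MY, 1074 to 1301 in WO and 2613, 3387, 3058, 2503 and 2694 in MO1 to MO5. Besides *Gfap*, the most abundant, *Aldh1l1* (0.62 and 0.69, FDR 0.00352 and 0.000230), *Aqp4* (0.44 and 0.83, FDR 0.0173 and 0.000244) and *Sox9* (0.47 and 0.69, FDR 0.00418 and 5.15e-05) rose in both. FPKM is a share of all RNA, and the part that more glial RNA has in the lower share of neuronal RNA was not tested.

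Oligodendrocyte markers fell in 4 of 6 cases in MY vs. MO, 2 of 6 in WO vs. MO and 3 of 6 in WY vs. WO, where 12.5% and 12.9% of all genes were lower and 1.12% passed in either direction, with medians of -0.60, -0.30 and -0.60. Their sums, which *Mbp* led, ran from 13854 to 16079 in WY, 13681 to 14565 in MY, 5021 to 23676 in WO and 6894 to 21859 in MO, with the highest values in WO5, MO4 and MO5 and the lowest in WO4, all of batch 2.

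The remaining lists checked whether nerve root, ganglion or muscle was in the samples. Of 8 sensory neuron markers 7 were in the table, and their FPKM summed to 1.35 to 1.80 in all mice, with *P2rx3* the most abundant. *Trpv1*, *Scn10a*, *Scn11a* and *Prdm12*, chosen for naming after their values were seen, had means under 0.1 in every group, so the defining markers of sensory ganglia were near 0. *Avil* rose in both comparisons with MO (0.39 and 0.36, FDR 0.00600 and 0.00239), and *P2rx3* fell in WO vs. MO (-0.15, FDR 0.0326), against a list median of 0.00 in both. Schwann cell markers summed to 9.89 to 11.8 in WY, MY and WO and to between 12.4 and 16 in MO, led by *Drp2*. Of the 6, 2 rose and 1 fell in MY vs. MO, against 13.1% and 12.5% of all genes, and 2 rose in WO vs. MO, against 15.0% (median 0.05 and 0.07). These were *Egr2* (0.74 and 0.82, FDR 0.000988 and 6.97e-05) and *Drp2* (0.25 and 0.35, FDR 0.0314 and 0.00107), with *Pmp2* the one that fell (-0.32, FDR 0.00460). Skeletal muscle markers summed to at most 1.60 in any mouse, and of 6 only *Acta1* passed, falling by 0.25 in WO vs. MO (FDR 0.0455), where 12.9% of all genes were lower, with a list median of 0.00 in both comparisons. In WY vs. WO and WY vs. MY no marker of neurons, microglia, Schwann cells or muscle passed, and of the astrocyte markers *Aqp4* (-0.65, FDR 0.0281) and *Gfap* fell in WY vs. WO.

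For the contrast of age by genotype, 8 of 9 motor neuron markers, 5 of 10 pan-neuronal markers, 6 of 14 cytoskeleton genes and 5 of 9 linker genes passed the FDR with a value below 0, as did 7.19% of all genes. With a value above 0, 7 of 7 microglia markers passed, as did 10.5% of all genes. WY1 was low in several of the neuronal genes, *Kif5a* and *Chat* among them. Without it, counted after the values were seen, 7 of 9 motor neuron markers and 4 of 10 pan-neuronal markers passed below 0. So did 4 of 14 cytoskeleton genes and 2 of 9 linker genes, against 4.85% of all genes. The share of all genes was thus lower as well, with fewer WY mice. Whether the lower counts, that of linker genes among them, come from this mouse or from the smaller group was not tested. The microglia count stayed at 7 of 7, against 7.998% of all genes above 0 at this FDR.

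In GENCODE M21 on GRCm38, the build used by the authors as mm10, *Nefl* lies at chr14:68083863-68089095 on the plus strand and *Nefm* at chr14:68082590-68124846 on the minus strand. *Nefh* lies at chr11:4938754-4948064 (minus), *Ina* at chr19:47014698-47025327 (plus) and *Prph* at chr15:99055174-99058978 (plus). The longest coding sequence was 1629 bases in 4 exons for *Nefl*, 2544 in 3 for *Nefm*, 3270 in 4 for *Nefh*, 1503 in 3 for *Ina* and 1521 in 8 for *Prph*. *Nefl* and *Nefm* are thus neighbors, and 1 of the 2 annotated *Nefm* transcripts runs on across *Nefl* on the opposite strand. Its exons overlap those of *Nefl* over 1108 bases (chr14:68083863-68084970), which hold 973 of the 1594 stretches of 36 bases in the *Nefl* coding sequence (61.0%). *Ina* overlaps *Nt5c2* in the same way over 456 bases (chr19:47014698-47015153), with 364 of 1468 stretches. *Nt5c2*, named for this overlap after its values were seen, had a log2(FC) of -0.07 in MY vs. MO (FDR 0.414) and -0.05 in WO vs. MO (FDR 0.469). The library kit marks strand, but whether the FPKM step used it is not given in the sources used here, so reads of *Nefl* and antisense *Nefm* may not be fully told apart. *Nefh* and *Prph* have no such overlap. The part of these overlaps in the values of *Nefl*, *Nefm* and *Ina* was not tested.

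Sequence shared on the same strand was counted as exact stretches of 36 coding bases, which leaves out shorter and inexact matches that an aligner may accept. Of all such stretches, none in *Nefl*, *Nefm*, *Nefh* or *Ina* occurred in a transcript of another gene, and 1 of 1486 in *Prph* occurred in *Des*, which encodes desmin. The longest identical run between members, in *Nefm* and *Prph*, was 35 bases and so just under this length. Whether reads were placed in the wrong gene was not tested.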

How the data were processed

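The authors deposited 1 table of log2(1 + FPKM) values for 16 spinal cord libraries. Per the labels and the study's methods, the steps were read cleaning (Trimmomatic), alignment to mm10 (TopHat) and FPKM estimation (Cufflinks), and versions are not given in the sources used here. Genes at 0 in at least 8 samples were removed, 1 was added, log2 was taken and ComBat was run for 2 library batches. After correction 915 values were below 0, none of them in the 5 genes. Whether ComBat was given the groups as covariates is not given in the sources used here, and since the young mice are all of batch 1 this could move comparisons of age. Neither counts nor the human transgene are analysed here.

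From these values, *limma* 3.58.1 in R 4.3.3 (lmFit, eBayes, two-sided, no batch term) was fitted on the 2 groups of each comparison, and on all 16 mice for age by genotype, with Benjamini-Hochberg FDR over 18167 genes. The procedure was tested on simulated data. Exact permutation tests used Python 3.11.15 with NumPy 2.4.6, pandas 2.3.3 and SciPy 1.17.1. Figures used matplotlib 3.10.9. Alternatives were 1 batch only, batch as a term, a mean of at least 1, a pseudocount of 0.1, quantile normalization, an intensity trend, 4 groups in 1 fit, leaving out each mouse, and blocks by replicate number. The 12 gene lists cover other intermediate filament genes, neurofilament kinases, linkers and turnover, the neuronal cytoskeleton, and markers of motor neurons, neurons, sensory neurons, Schwann cells, microglia, astrocytes, oligodendrocytes and muscle. Named were the 5 genes, *Xist*, *Ddx3y* and *Pfn1*, per list and direction at most the 3 largest changes past the FDR (the 2 most abundant where none passed), and the 3 genes most correlated with each member. Some results under this rule are not reported here. The members and the lists were chosen with earlier results of these data known.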

Additional observations from a re-analysis of the deposited data

Results flagged for a closer look

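The difference between MO and MY differed from that between WO and WY by the test of the contrast itself for 4 of the 5 genes, with *limma* over all genes. On the log2 scale the contrast was -0.88 for *Nefl*, -0.75 for *Nefm*, -0.86 for *Nefh* and -0.72 for *Ina*. In a check for single mice far from the rest of their group, none of 18 sets of 5 values (5 genes and 4 ratios in WO and in MO) had one, where chance gives about 1 in 20. Groups of 3, WY among them, are too small for that check, so WY1 was not examined by it.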

How the results depend on the processing

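The decreases of *Nefl*, *Nefm*, *Nefh* and *Ina* in MY vs. MO, in WO vs. MO and in the contrast of age by genotype kept their direction and passed the FDR under every alternative with a test, and *Prph* passed under none. The 3 chains also kept to the fold threshold in both comparisons with MO. Their values ranged from -1.02 to -0.69 for *Nefl*, from -0.90 to -0.75 for *Nefm* and from -0.91 to -0.76 for *Nefh* in MY vs. MO, with the largest decreases under quantile normalization or in batch 1.

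Counts over all genes moved more. With a pseudocount of 0.1, genes past the FDR and the fold threshold were 1483 and not 890 in MY vs. MO, 1529 and not 836 in WO vs. MO and 1548 and not 1020 for age by genotype, since low genes then have larger folds. In WY vs. WO it gave 85 and not 204 genes past the FDR. Batch 1 alone, with fewer mice, gave 2612 and not 5075 genes in WO vs. MO. In WY vs. WO batch 1 alone gave 73 and batch as a term 80 genes past both thresholds, where the count was 46. The cause was not tested. In WY vs. MY, where 1 gene passed, the filter on the mean and the intensity trend each gave 2 by either rule, and 4 groups in 1 fit gave 5 past the FDR and 4 past both thresholds.

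With 1 mouse left out, genes past the FDR were 2586 to 5130 in MY vs. MO (2586 to 3063 without 1 of the MY mice), 9 to 182 in WY vs. WO and 1 to 5 in WY vs. MY, and past both thresholds 7 to 64 in WY vs. WO and 1 to 5 in WY vs. MY. Differences near 0 changed sign, none of which had passed a test. Over the mice left out, WY vs. WO ran from -0.0816 to 0.0141 for *Nefm* and from -0.00538 to 0.0846 for *Nefh*, WY vs. MY from -0.00157 to 0.213 for *Nefl*, and age by genotype from -0.111 to 0.0203 for *Prph*. The ratio of *Nefm* to *Nefl* ran from -0.153 to 0.0177 in WY vs. MY, from -0.0846 to 0.00624 in MY vs. MO and from -0.00274 to 0.0881 in WO vs. MO. That of *Nefh* to *Nefl* ran from -0.0659 to 0.0627 in WY vs. MY and from -0.0177 to 0.0287 in WO vs. MO. In batch 1 alone, *Nefm* to *Nefl* was at 0.0638 in MY vs. MO and *Nefh* to *Nefl* at -0.0184 in WO vs. MO.

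Mice of different groups share only a number. Deviations from group means of same-numbered mice correlated across genes at 0.09 to 0.18 in MY vs. MO (3 pairs), -0.21 to 0.09 in WO vs. MO (5), -0.13 to 0.38 in WY vs. WO (3) and -0.20 to -0.02 in WY vs. MY (3), and the best match of a mouse carried its own number in 3, 1, 2 and 0 of these. With the number as a block, 68 genes and not 204 passed in WY vs. WO, and 4 of 5 members still passed in both comparisons with MO.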
